A study of Mus musculus with 6 samples.

Results

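The genes described here are 10 markers of dedifferentiated, invasive melanoma cells, Ngfr, Axl, Sox9, Tnc, Wnt5a, Egfr, Nes, Fgfr1, Loxl2 and Gfra2, followed in whole tumours of B16, an established line of mouse melanoma cells, labelled with the genotype WT. They were taken by gene name from a table of 34665 genes, and all 10 had a row. RNA was measured by bulk sequencing of whole tumours in 6 libraries. The 3 RI libraries (replicates 1, 2 and 4) came from mice given radiation together with an immune checkpoint inhibitor, and the 3 ICI libraries (replicates 1, 2 and 3) from mice given the inhibitor alone. The tumours of all 6 libraries had thus been exposed to the inhibitor, and no untreated tumour was analysed here. The sources used here do not give the inhibitor's target, the dose of radiation, when tumours were taken or whether the sequenced tumour was itself irradiated. Nothing in the labels ties each library to its own mouse, and the p-values therefore measure only how far these libraries spread, which may be technical. By its title the study concerns perivascular fibroblasts and the abscopal response. The question followed here is whether the 10 genes differed when radiation was added.

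Melanoma cells can lie in a differentiated state, in which the transcription factor Mitf drives pigment genes, or in less differentiated states, in which pigment genes are low and genes of the neural crest or of mesenchymal cells are high. The receptor kinases Axl, Egfr and Fgfr1, the neurotrophin receptor Ngfr and the neurturin co-receptor Gfra2 mark such states at the cell surface. Sox9 and the intermediate filament Nes mark progenitor-like cells, and Wnt5a, Tnc and Loxl2 are secreted. Most of these genes are also used by fibroblasts, vessel cells, Schwann cells or keratinocytes. In whole tumours, fewer cells of a type and less RNA per cell cannot be told apart.

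The libraries held 22543721 to 45624013 counts. Levels are given as TMM-normalized CPM, counts scaled for library size and composition. The 13 pigment and melanocyte lineage genes of a chosen list summed to 11208 to 15927.5 CPM in RI and 14735 to 16771 CPM in ICI, while the 10 genes together summed to 138 to 228 CPM in RI and 162 to 241 CPM in ICI. Defining markers of the labelled melanoma cells were thus present in every library, and the name of the gene set is that of a marker list, not of the state of these tumours. Mitochondrial genes held 11.5% to 14.7% of counts in RI and 4.39% to 5.01% in ICI. RI replicate 1 stood apart from the other libraries. Its counts fell on 29748 rows of the table (22763 to 24891 elsewhere), and it had the highest summed levels of fibroblast, endothelial, macrophage and skeletal muscle markers.

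Sequence around the start site was at hand for 5 of the 10 genes (RefSeq, GRCm38.p6; 250 bases before to 50 after the start). The windows of Nes, the only member called, and of Axl, the most abundant member per length, are shown on the coding strand, 5′ to 3′. Capitals mark every match to 5 short motifs searched on both strands, which did not overlap each other: the AP-1 motif TGANTCA, the TEAD motif GGAATG, the GC box GGGCGG bound by Sp1, the TATA box TATAAA and the core of the M-box, CATGTG.
Nes, chr3:87970843-87971142, plus strand: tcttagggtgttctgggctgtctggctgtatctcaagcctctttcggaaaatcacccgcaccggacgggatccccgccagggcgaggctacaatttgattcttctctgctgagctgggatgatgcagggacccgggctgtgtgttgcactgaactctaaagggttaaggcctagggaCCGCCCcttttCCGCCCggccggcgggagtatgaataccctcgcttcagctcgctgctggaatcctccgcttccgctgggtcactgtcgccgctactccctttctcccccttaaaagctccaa
Axl, chr7:25788684-25788983, minus strand: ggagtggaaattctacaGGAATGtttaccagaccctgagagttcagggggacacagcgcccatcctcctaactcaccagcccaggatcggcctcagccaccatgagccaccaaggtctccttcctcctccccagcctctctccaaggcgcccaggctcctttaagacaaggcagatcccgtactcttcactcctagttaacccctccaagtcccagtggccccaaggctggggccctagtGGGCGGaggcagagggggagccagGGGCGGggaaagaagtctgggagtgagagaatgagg
The Nes window held 2 GC boxes and no other match. The Axl window held 2 GC boxes and 1 TEAD match. The GC box occurred in 35.7% of the 32851 promoter windows of the same length, the TEAD motif in 14.7%, the AP-1 motif in 7.81%, the TATA box in 13.6% and the M-box core in 14.2%. The windows of Ngfr, Egfr and Tnc, not shown, held the GC box 4 times, once and once in each of 2 overlapping windows, and both Tnc windows held the TATA box. None of the 6 windows held the AP-1 motif or the M-box core. A match describes these letters only, and their absence from a window says nothing about binding elsewhere.

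The 10 genes spanned a wide range of levels. Per kilobase of exon, averaged over the 6 libraries, the order was Axl (10.2 CPM per kb), Nes (8.40), Tnc (5.42), Loxl2 (5.20), Fgfr1 (1.26), Sox9 (1.07), Egfr (0.198), Ngfr (0.132), Wnt5a (0.0847) and Gfra2 (0.0728). The order was the same when the longest transcript was used as the length. Over the 6 libraries the ranges of Axl, Nes and Loxl2 did not overlap that of Fgfr1, and the range of Sox9 did not overlap that of Egfr. Tnc, at its lowest 1.66 CPM per kb in ICI replicate 2, reached below the highest value of Fgfr1, 2.03 CPM per kb in RI replicate 1. Within the first 4, within the pair of Fgfr1 and Sox9, and within the last 4, each gene's range over the libraries overlapped that of its neighbour in the order. Ngfr, Wnt5a and Gfra2 rested on 91, 144 and 51 counts over all libraries, so they were measured with large counting error.

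Of the 10 genes, 1 fell in RI tumours (Nes), 0 rose and 9 did not pass the test. Over all 16924 tested genes 9.18% were called, 4.46% higher and 4.72% lower in RI, so 1 of 10 was near the background. Of all calls 48.6% were higher, and 67.8% with upper-quartile scaling. At an unadjusted p under 0.05 in edgeR, 1 of the 10 was higher and 1 lower, against 31.5% of all tested genes in either direction. DESeq2 called 1 of the 10 higher and 1 lower, against 1746 higher and 1703 lower of all 16924 tested genes. All 10 passed the filter on low counts. The test was edgeR's quasi-likelihood test with Benjamini-Hochberg adjustment over all tested genes, and a call is an adjusted p under 0.05. The median log2 fold change of the 10 genes was -0.19, against 0.01 over all tested genes, and 5 were positive and 5 negative. The libraries of the groups did not overlap for Nes and Sox9, both lower in RI, and for Fgfr1, higher in RI. Over all tested genes 37.2% had no overlap, 17.8% with RI above and 19.4% with RI below.

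**Figure D1:**
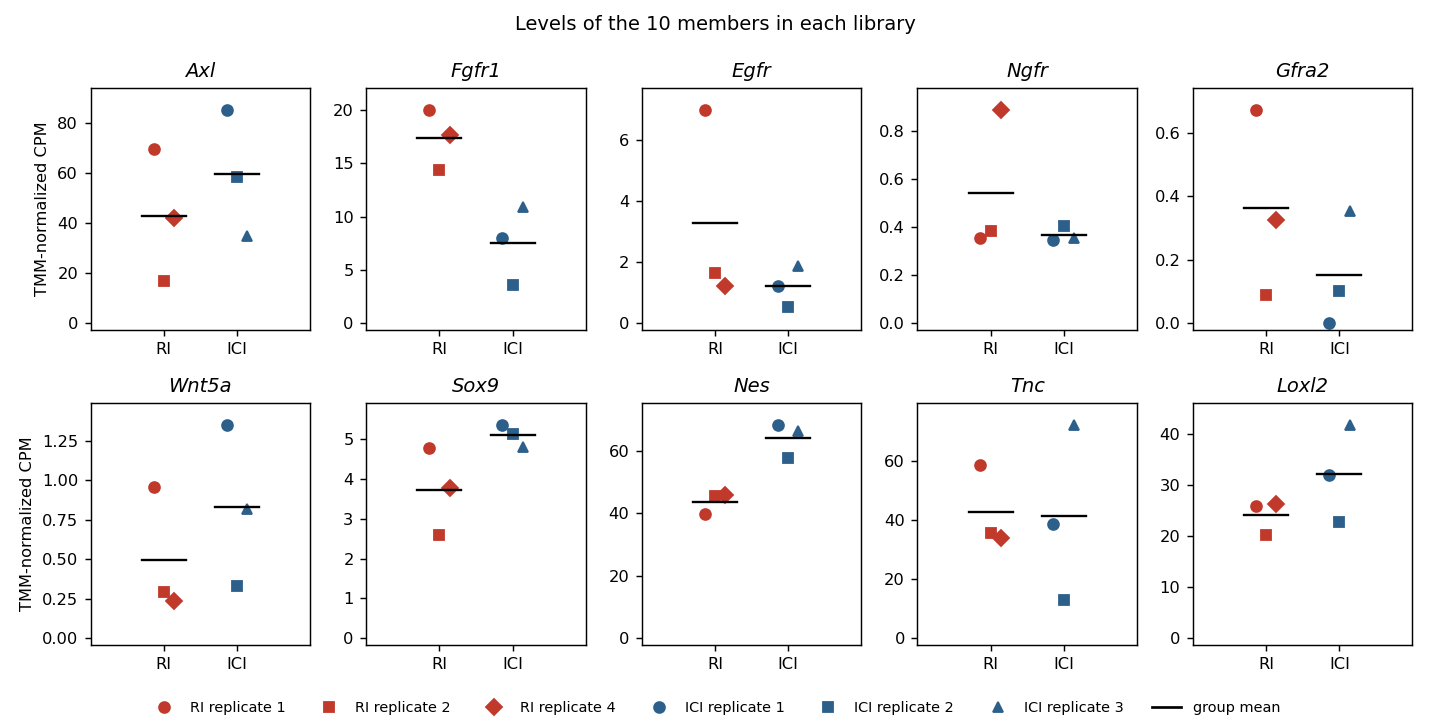
TMM-normalized CPM (vertical axes, linear and each with its own scale) of the 10 genes in the 3 RI and the 3 ICI libraries, with a symbol per replicate and a bar at the group mean. Nes lay at 39.6 to 45.6 CPM in RI, below 57.7 to 68.3 CPM in ICI, and Fgfr1 at 14.4 to 20.0 CPM in RI, above 3.62 to 10.9 CPM in ICI. Egfr was high in RI replicate 1 only.

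Nes encodes nestin, an intermediate filament of neural and muscle progenitors and of new vessels (ENSMUSG00000004891, chromosome 3, 87971078 to 87980451 on GRCm38, plus strand). It had 39.6, 45.6 and 45.6 CPM in RI replicates 1, 2 and 4, against 68.3, 57.7 and 66.4 CPM in ICI replicates 1, 2 and 3. All RI libraries lay below all ICI libraries. The mean was 43.6 ± 3.46 CPM in RI and 64.1 ± 5.66 CPM in ICI (SD, n = 3 each), a 1.47-fold fall (log2 fold change -0.56, SE 0.13, edgeR adjusted p = 0.0394). The call ended without RI replicate 2 or 4 (edgeR adjusted p = 0.106 and 0.0946) and without ICI replicate 1, 2 or 3 (0.161, 0.0547 and 0.119). The fits without RI replicate 2 and without ICI replicate 1 called 0 of all tested genes, and that without ICI replicate 3 called 2. The call of Nes also ended when transcript length and GC content were corrected per library (0.0512). In the fits where the call ended the log2 fold change of Nes stayed between -0.64 and -0.52. Only without RI replicate 1, among the fits that leave out a library, did Nes pass (adjusted p = 0.0368).

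Fgfr1 is a receptor tyrosine kinase for fibroblast growth factors (ENSMUSG00000031565, chromosome 8, 25513654 to 25575718, plus strand). It had 20.0, 14.4 and 17.7 CPM in RI replicates 1, 2 and 4, against 7.99, 3.62 and 10.9 CPM in ICI replicates 1, 2 and 3. Every RI library was above every ICI library, and the lowest value of all was in ICI replicate 2. The mean was 17.4 ± 2.86 CPM in RI and 7.50 ± 3.65 CPM in ICI (SD, n = 3 each). This log2 fold change of 1.21 (95% interval 0.36 to 2.06) did not pass the edgeR test after adjustment (adjusted p = 0.0730). It was called by DESeq2 (adjusted p = 0.0110) and with no filter on low counts (0.0325), and in none of the 6 fits that leave out a library (0.0811 to 0.199). Among ICI libraries replicate 2 was also the lowest for summed fibroblast markers, at 121 CPM. ICI replicate 3 had 737 CPM of these markers, above RI replicates 2 and 4 (470 and 362 CPM), but less Fgfr1 than either. The part of fibroblasts in the Fgfr1 levels was not tested.

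Axl, a receptor kinase for Gas6 and a marker of drug-tolerant, Mitf-low melanoma cells, varied several-fold inside each group (ENSMUSG00000002602, chromosome 7, 25757273 to 25788705, minus strand). It had 69.8, 17.1 and 42.1 CPM in RI replicates 1, 2 and 4, against 85.4, 58.3 and 34.9 CPM in ICI replicates 1, 2 and 3. The groups overlapped, with the highest value in ICI replicate 1 and the lowest in RI replicate 2. The log2 fold change of -0.47 had a 95% interval of -1.83 to 0.89 (edgeR adjusted p = 0.594), and it was -1.01 without RI replicate 1 and -0.07 without RI replicate 2.

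Egfr, the receptor of epidermal growth factor (ENSMUSG00000020122, chromosome 11, 16752203 to 16918158, plus strand), had 6.99, 1.65 and 1.21 CPM in RI replicates 1, 2 and 4, against 1.21, 0.528 and 1.88 CPM in ICI replicates 1, 2 and 3. RI replicate 1 alone was high, and the other RI libraries lay inside the ICI range. The log2 fold change of 1.44 (95% interval -0.29 to 3.17, edgeR adjusted p = 0.225) was 0.25 without RI replicate 1. That library also had the highest summed levels of fibroblast markers, at 760 CPM, and of keratinocyte markers, at 1.45 CPM. There Perp alone held 1.24 CPM of the keratinocyte sum, while Krt5 had 1 count and Krt14 had 0. ICI replicate 3 had 737 CPM of fibroblast markers with 1.88 CPM of Egfr. RI replicate 4 had 1.12 CPM of keratinocyte markers, all of it Perp, with 1.21 CPM of Egfr. The keratinocyte sum is thus mainly the level of Perp in these 2 libraries. The part of these cells in the Egfr value was not tested.

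Both receptors of the neurotrophin and neurturin families were near the detection limit. Ngfr, the low-affinity neurotrophin receptor of neural crest cells (ENSMUSG00000000120, chromosome 11, 95568818 to 95587735, minus strand), had 10, 17 and 19 counts in RI replicates 1, 2 and 4, against 12, 16 and 17 counts in ICI replicates 1, 2 and 3. These are 0.355, 0.383 and 0.887 CPM in RI, against 0.345, 0.403 and 0.355 CPM in ICI. The groups overlapped, and RI replicate 4, the library with the fewest counts, had the highest level, with an exact 95% Poisson interval of 0.534 to 1.38 CPM that covers counting error only. RI over ICI gave a log2 fold change of 0.52 (95% interval -0.59 to 1.63, edgeR adjusted p = 0.486), and without RI replicate 4 it was 0.01.

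Gfra2, the co-receptor through which neurturin acts on the kinase Ret (ENSMUSG00000022103, chromosome 14, 70890120 to 70979838, plus strand), had 19, 4 and 7 counts in RI replicates 1, 2 and 4, against 0, 4 and 17 counts in ICI replicates 1, 2 and 3. The count of 0 in ICI replicate 1 allows a level of up to 0.0863 CPM (3 counts). The groups overlapped, with the highest levels, 0.674 and 0.355 CPM, in RI replicate 1 and in ICI replicate 3. Its log2 fold change of 1.12 had a 95% interval of -1.31 to 3.55 (edgeR adjusted p = 0.489), and it ran from 0.23 without RI replicate 1 to 2.65 without ICI replicate 3, so no difference was detectable at this depth.

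Wnt5a, a secreted ligand of non-canonical Wnt signalling that promotes motility of melanoma cells (ENSMUSG00000021994, chromosome 14, 28504750 to 28527448, plus strand), was also low. It had 0.958, 0.293 and 0.233 CPM in RI replicates 1, 2 and 4, against 1.35, 0.327 and 0.815 CPM in ICI replicates 1, 2 and 3, on 5 to 47 counts a library. The groups overlapped, and ICI replicate 2 lay with the low RI libraries. Its log2 fold change was -0.74 (95% interval -2.32 to 0.84, edgeR adjusted p = 0.483). It was -1.62 without RI replicate 1 and -0.23 without ICI replicate 1.

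Sox9, a transcription factor of neural crest and cartilage progenitors (ENSMUSG00000000567, chromosome 11, 112782224 to 112787760, plus strand), had 4.79, 2.59 and 3.78 CPM in RI replicates 1, 2 and 4, against 5.38, 5.13 and 4.81 CPM in ICI replicates 1, 2 and 3. No RI library reached the lowest ICI library, but RI replicate 1 and ICI replicate 3 were within counting error of each other, with exact 95% Poisson intervals of 4.01 to 5.67 and 4.21 to 5.47 CPM. A log2 fold change of -0.46 did not pass (95% interval -1.11 to 0.19, edgeR adjusted p = 0.295), and it was -0.24 without RI replicate 2. Sox10, the related factor that keeps the melanocyte lineage, was at 674 ± 140 CPM in RI and 582 ± 54.0 CPM in ICI (SD, n = 3 each, edgeR adjusted p = 0.452, log2 fold change 0.21, and -0.05 once length and GC content were corrected). Col2a1 and Col9a1, cartilage collagens that Sox9 is known to activate, were at 30.7 ± 14.4 and 8.05 ± 3.20 CPM in RI, against 16.6 ± 6.97 and 5.57 ± 2.22 CPM in ICI (edgeR adjusted p = 0.220 and 0.380). Of 5 cartilage markers 3 were tested, and the third, Matn3, went the other way. It was at 1.27 ± 0.616 CPM in RI and 2.25 ± 1.74 CPM in ICI (edgeR adjusted p = 0.384).

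Of the matrix genes, Tnc, the adhesion-modulating glycoprotein tenascin-C (ENSMUSG00000028364, chromosome 4, 63959785 to 64047015, minus strand), had 58.7, 35.7 and 34.2 CPM in RI replicates 1, 2 and 4, against 38.7, 12.9 and 72.5 CPM in ICI replicates 1, 2 and 3. ICI replicates 2 and 3 were the lowest and the highest of all libraries, so the RI values lay inside the ICI range. For Tnc the log2 fold change was 0.05 (95% interval -1.44 to 1.54, edgeR adjusted p = 0.966), and it was -0.39 without ICI replicate 2 and 0.72 without ICI replicate 3. The fibroblast markers summed to 760, 470 and 362 CPM in RI replicates 1, 2 and 4, against 348, 121 and 737 CPM in ICI replicates 1, 2 and 3. The lowest library and the 2 highest were thus the same for Tnc and for these markers, and their part in the Tnc values was not tested.

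Loxl2, a copper-dependent amine oxidase that crosslinks collagen and elastin (ENSMUSG00000034205, chromosome 14, 69609068 to 69695834, plus strand), had 25.9, 20.1 and 26.1 CPM in RI replicates 1, 2 and 4, against 31.9, 22.7 and 41.8 CPM in ICI replicates 1, 2 and 3. The RI libraries lay at the low end, overlapping with ICI replicate 2. For Loxl2 a log2 fold change of -0.42 did not pass (95% interval -0.95 to 0.11, edgeR adjusted p = 0.243), and it was -0.20 without ICI replicate 3. Antisense genes cover 5.57% of the exons of Loxl2, 4.58% of those of Wnt5a and at most 2.27% of those of Tnc and Fgfr1. The strand setting of the counting is not given, so reads of these stretches cannot be told apart, and the other 6 genes share no exon with another gene.

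**Figure D2:**
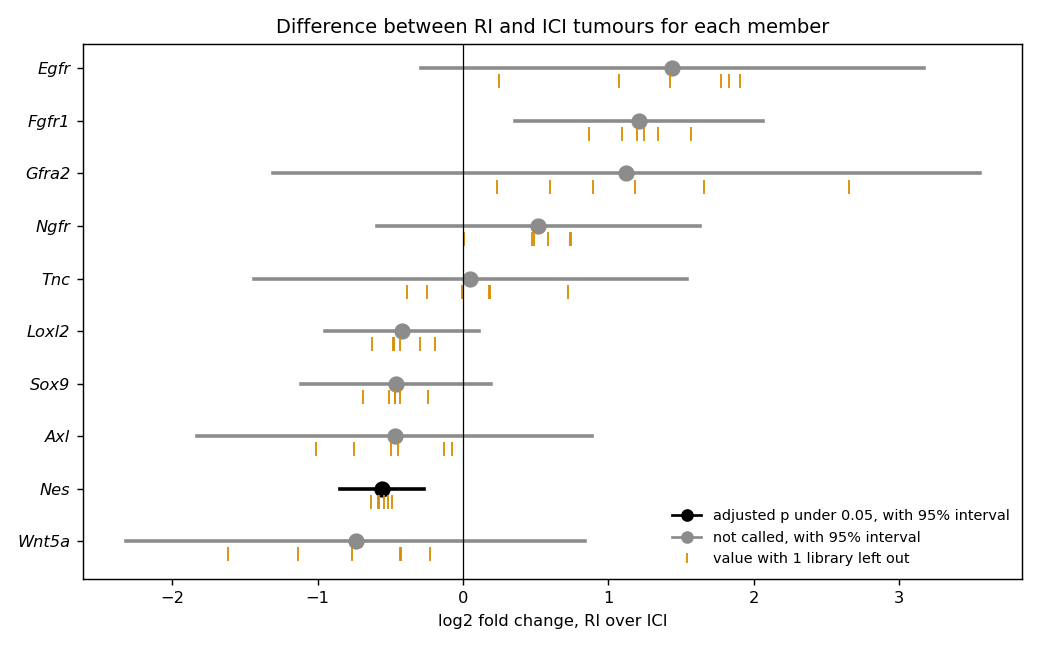
Log2 fold change of RI over ICI (horizontal axis) for each gene, with its 95% interval as a line and, as ticks under it, the values when each of the 6 libraries is left out. The intervals of Nes and Fgfr1 lie off 0, only Nes passed the adjusted test, and the ticks of Egfr, Gfra2 and Wnt5a are spread widely.

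Axl is commonly read against Mitf, since the Mitf-low, Axl-high state is the invasive one in human melanoma. Mitf had 213, 393 and 368 CPM in RI replicates 1, 2 and 4, against 681, 375 and 422 CPM in ICI replicates 1, 2 and 3 (log2 fold change -0.60, edgeR adjusted p = 0.205). The ratio of Axl to Mitf was 0.327, 0.0435 and 0.115 in RI, against 0.125, 0.155 and 0.0829 in ICI. The highest and the lowest ratio were both in RI tumours, RI replicates 1 and 2. The difference of the mean log2 ratio, RI minus ICI, was 0.01 (2-sided exact permutation p = 1, where 3 against 3 allows no p under 0.1). Without RI replicate 1 this difference was -0.73 and without RI replicate 2 it was 0.72. The log2 ratio of Axl to its sister kinase Tyro3 differed by -0.37 (exact permutation p = 0.7) and that of Sox9 to Sox10 by -0.69 (exact permutation p = 0.3), and over these 3 ratios the adjusted p-values were 1, 1 and 0.9.

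**Figure D3:**
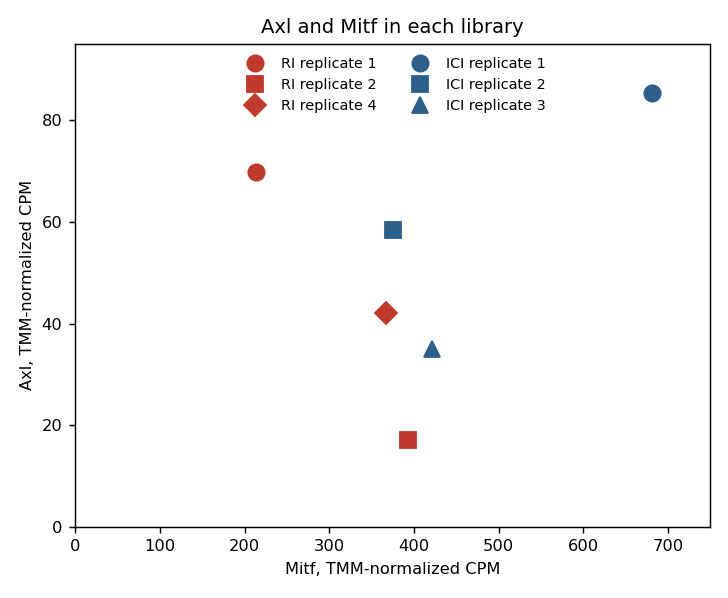
Axl (vertical axis) against Mitf (horizontal axis), both in TMM-normalized CPM, 1 symbol per library. RI replicate 1 had the lowest Mitf, at 213 CPM, with 69.8 CPM of Axl, while ICI replicate 1 had the highest of both, at 681 and 85.4 CPM.

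Ligands, co-receptors and relatives of the 10 genes were followed in 10 short lists. Of their 66 genes 64 had a row, 46 passed the filter, 2 rose (Tnxb and Vim), 2 fell (Fzd7 and Itga9) and 42 did not pass the test, which is 8.70% called against 9.18% of all tested genes. The median log2 fold change of the 46 was 0.20, against 0.01 over all tested genes.

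Of 42 ligands, co-receptors and relatives that were tested and not called, several direct partners are given first. Gas6, the ligand of Axl, had 31.6, 16.8 and 8.82 CPM in RI replicates 1, 2 and 4, against 6.38, 7.88 and 14.3 CPM in ICI replicates 1, 2 and 3 (edgeR adjusted p = 0.218), so the groups overlapped. Fgf2, a ligand of Fgfr1, averaged 3.02 ± 0.905 CPM in RI and 1.88 ± 0.312 CPM in ICI (SD, n = 3 each), with no overlap and adjusted p = 0.185 in edgeR. Hbegf, a ligand of Egfr, averaged 6.60 ± 0.276 CPM in RI and 6.53 ± 0.616 CPM in ICI, a log2 fold change of 0.02 with a 95% interval of -0.44 to 0.47. RI and ICI libraries overlapped. Nrtn, the ligand of Gfra2, was at 3.28 ± 0.395 CPM in RI and 2.28 ± 0.486 CPM in ICI (edgeR adjusted p = 0.243), and its partner kinase Ret at 0.465 ± 0.221 CPM in RI and 0.205 ± 0.113 CPM in ICI (0.216).

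Fzd7, a frizzled receptor of Wnt ligands, fell 1.97-fold. It had 50.5, 51.0 and 60.4 CPM in RI replicates 1, 2 and 4, against 99.9, 92.8 and 125.7 CPM in ICI replicates 1, 2 and 3. All RI libraries lay well below ICI (log2 fold change -0.98, SE 0.15, edgeR adjusted p = 0.0260), and the call held once length and GC content were corrected (adjusted p = 0.0327). It ended without ICI replicate 1 or 3 or RI replicate 2 or 4. Ror2, the kinase co-receptor of Wnt5a, was at 0.539 ± 0.147 CPM in RI and 0.324 ± 0.245 CPM in ICI (edgeR adjusted p = 0.468). Its relative Ror1, chosen after its values were seen, was at 0.793 ± 0.375 CPM in RI and 0.176 ± 0.0904 CPM in ICI, with no overlap between the groups and adjusted p = 0.0552 in edgeR.

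Among relatives of the structural members, Vim, the mesenchymal intermediate filament vimentin with which nestin assembles, rose 1.58-fold while Nes fell. It had 3150, 3371 and 3633 CPM in RI replicates 1, 2 and 4, against 2313, 2084 and 2021 CPM in ICI replicates 1, 2 and 3 (log2 fold change 0.66, SE 0.14, edgeR adjusted p = 0.0374). The groups did not overlap for either filament gene, in opposite directions. Tnxb, a tenascin of loose connective tissue, rose 2.78-fold to 15.3 ± 1.72 CPM in RI, against 5.50 ± 1.54 CPM in ICI (adjusted p = 0.0268). Itga9, an integrin subunit that binds tenascin-C, fell 1.58-fold to 43.2 ± 0.911 CPM in RI, against 68.3 ± 12.9 CPM in ICI (adjusted p = 0.0425). Lox, the founding lysyl oxidase, had 71.6, 31.1 and 16.8 CPM in RI replicates 1, 2 and 4, against 16.2, 3.27 and 19.9 CPM in ICI replicates 1, 2 and 3 (adjusted p = 0.238 in edgeR). RI replicate 1 was again the highest library, and the log2 fold change of Lox, 1.60, was 0.87 without it. With length and GC content corrected, Vim and Tnxb passed the edgeR test (adjusted p = 0.0342 and 0.0327) and Itga9 did not (0.0687, and 0.0547 with upper-quartile scaling). Tnxb and Itga9 lost their calls without the same 4 libraries as Fzd7, and of the fits that leave out a library Vim passed only in that without RI replicate 1.

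**Figure D4:**
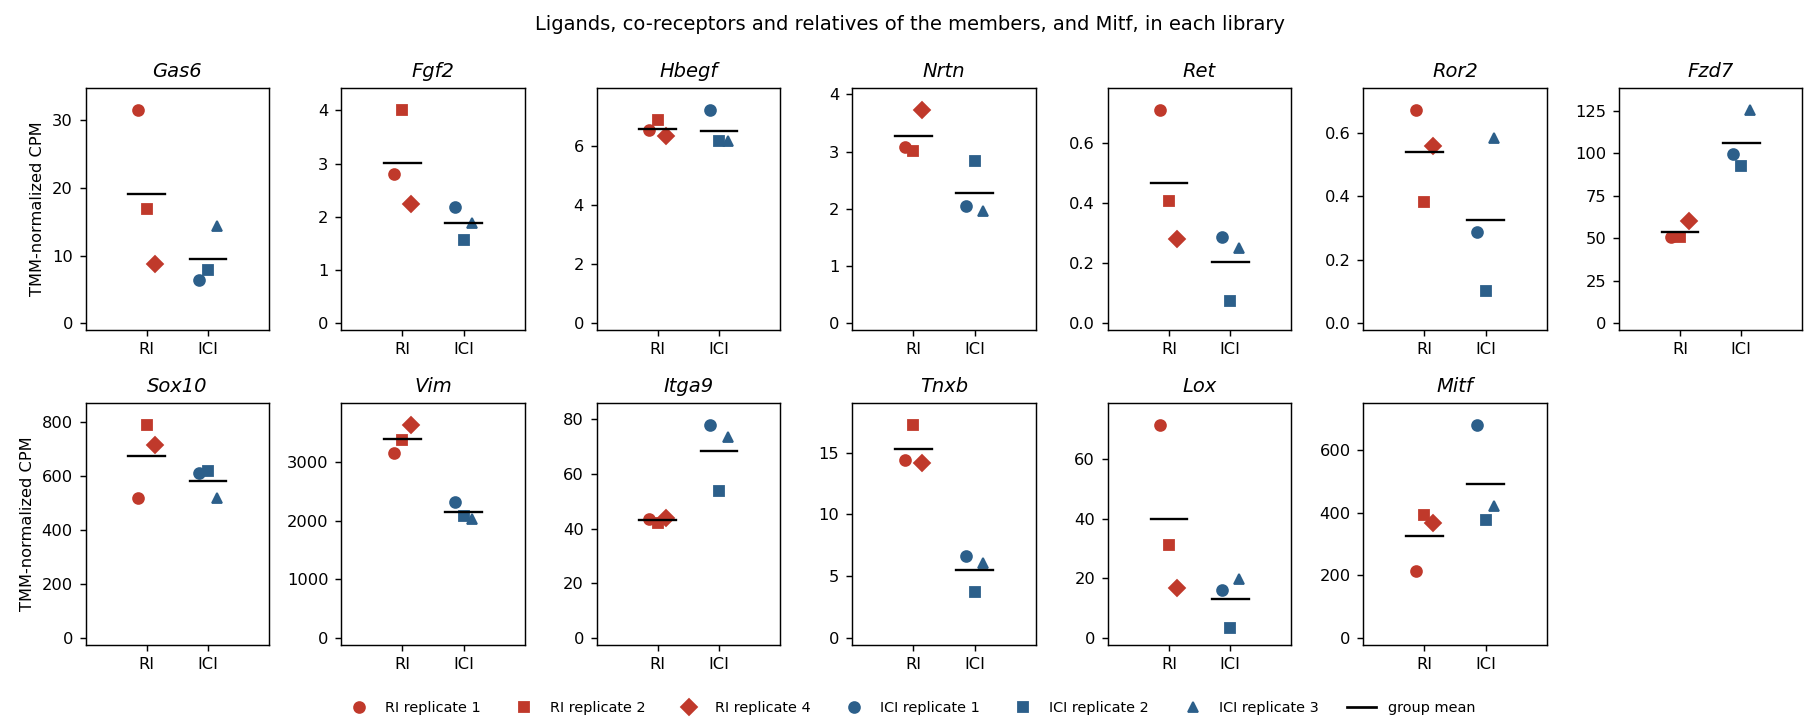
TMM-normalized CPM (vertical axes, linear, own scale each) of ligands, co-receptors and relatives of the 10 genes and of Mitf, in the 3 RI and 3 ICI libraries with a bar at the group mean. The groups do not overlap for Fzd7 and Itga9, lower in RI, and for Vim, Tnxb, Fgf2 and Nrtn, higher in RI.

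Of 22 further invasive-state genes, all tested, 0 rose, 1 fell and 21 did not pass, with a median log2 fold change of -0.19. This is 4.55% called, against 9.18% of all tested genes. The one that fell was Nuak1, a kinase related to AMPK, at 5.82 ± 0.146 CPM in RI and 10.8 ± 0.995 CPM in ICI (1.85-fold, edgeR adjusted p = 0.0346, and 0.0531 with length and GC content corrected). Of 12 genes of the neural crest-like state, 8 were tested and 0 were called by edgeR. Their unadjusted p was under 0.05 for 2 higher and 0 lower genes, against 31.5% of all tested genes in either direction. DESeq2 and limma-voom each called 1 higher and 0 lower. Over all 16924 tested genes DESeq2 called 1746 higher and 1703 lower, and limma-voom 736 and 772. Slc22a17, a receptor of the iron carrier lipocalin, was at 2.90 ± 0.128 CPM in RI and 1.33 ± 0.253 CPM in ICI (adjusted p = 0.0517 in edgeR). Tmem176b, a membrane protein of endosomes, was at 185 ± 31.4 CPM in RI and 135 ± 15.6 CPM in ICI (adjusted p = 0.111 in edgeR).

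Of 13 genes for AP-1 and TEAD factors, which are known to drive the invasive state, 5 rose, 1 fell and 7 did not pass. This is 46.2% called, against 9.18% of all tested genes, in a list chosen with earlier results of these data known. Fosb rose 7.32-fold to 30.5 ± 18.2 CPM in RI, against 4.14 ± 1.71 CPM in ICI (edgeR adjusted p = 0.0328), and Fos 3.95-fold to 71.7 ± 37.0 CPM in RI, against 18.1 ± 6.13 CPM in ICI (0.0411). Junb rose 2.33-fold and Tead3 2.07-fold (edgeR adjusted p = 0.0402 and 0.0350). Jund, which rose 1.82-fold, and Tead1, which fell 1.54-fold, were chosen after their values were seen (adjusted p = 0.0428 and 0.0484). With no filter on low counts Fosb and Fos were not called (adjusted p = 0.0737 and 0.126), and Tead1 was not called by limma-voom (0.0561) or with upper-quartile scaling (0.0685). With length and GC content corrected only Fosb of these 6 was called (adjusted p = 0.0484), and the log2 fold change of Junb was 0.85 against 1.22 and that of Jund 0.48 against 0.86. Fosl1, the AP-1 member most tied to dedifferentiated melanoma, was at 0.745, 0.383 and 0.327 CPM in RI replicates 1, 2 and 4, against 0.259, 0 and 0.460 CPM in ICI replicates 1, 2 and 3 (edgeR adjusted p = 0.485), and was chosen after its values were seen.

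Of the 13 melanocyte lineage genes 1 rose, 1 fell and 11 did not pass, with a median log2 fold change of -0.13. This is 15.4% called, against 9.18% of all tested genes. Mlana, a melanosome protein, rose 1.68-fold to 965 ± 115 CPM in RI, against 574 ± 78.5 CPM in ICI (edgeR adjusted p = 0.0376). Slc24a5, a cation exchanger needed for pigment, fell 1.88-fold to 133 ± 32.5 CPM in RI, against 250 ± 11.9 CPM in ICI (adjusted p = 0.0350). With length and GC content corrected Slc24a5 was called (adjusted p = 0.0499) and Mlana was not (0.0681). Each called gene named in these lists, Nuak1, Fosb, Fos, Junb, Jund, Tead3, Tead1, Mlana and Slc24a5, kept its call without RI replicate 1 and lost it in 4 or 5 of the other 5 fits that leave out a library.

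Markers of other cell types that express the 10 genes are given beside them because whole tumours were sequenced. Of 9 fibroblast markers, 7 endothelial, 8 pericyte and smooth muscle and 7 macrophage markers, all tested, 0 were called by edgeR, against 9.18% of all tested genes. An unadjusted p was under 0.05 for 1 higher and 1 lower fibroblast marker, for 0 endothelial and 0 pericyte markers and for 2 higher macrophage markers. DESeq2 called 1 fibroblast and 1 pericyte marker lower and 1 macrophage marker higher, and limma-voom called 0. Over all 16924 tested genes DESeq2 called 1746 higher and 1703 lower, and limma-voom 736 and 772. Without RI replicate 1 edgeR called 2 macrophage markers and 1 fibroblast marker lower in RI, and 0 of either list higher. Over all genes this fit called 1564 higher and 1545 lower. The summed endothelial level was 221, 71.2 and 38.6 CPM in RI replicates 1, 2 and 4, against 163, 64.3 and 157 CPM in ICI replicates 1, 2 and 3. Wnt5a had its lowest levels, as did these markers, in RI replicates 2 and 4 and ICI replicate 2. Of single markers with the smallest p, Thy1 and Pdgfra of fibroblasts averaged 9.96 ± 2.32 and 5.21 ± 2.59 CPM in RI, against 20.8 ± 7.42 and 2.30 ± 0.987 CPM in ICI (adjusted p = 0.0621 and 0.130 in edgeR). Kdr and Cldn5 of endothelium averaged 9.21 ± 3.70 and 18.4 ± 23.3 CPM in RI, against 18.7 ± 9.84 and 7.89 ± 3.42 CPM in ICI (0.217 and 0.435). Rgs5 and Notch3 of pericytes averaged 20.0 ± 5.40 and 4.24 ± 1.26 CPM in RI, against 45.0 ± 30.3 and 7.76 ± 4.02 CPM in ICI (0.160 and 0.218). Cd68 and Mrc1 of macrophages averaged 34.0 ± 8.43 and 29.0 ± 13.8 CPM in RI, against 20.8 ± 2.28 and 15.8 ± 4.89 CPM in ICI (0.0583 and 0.154). Adgre1 and Csf1r of macrophages went the other way, at 3.23 ± 2.92 and 7.14 ± 2.84 CPM in RI, against 6.76 ± 3.77 and 11.1 ± 1.29 CPM in ICI (0.345 and 0.171). Of the 7 macrophage markers 5 had a positive and 2 a negative log2 fold change. Of the 8 pericyte and smooth muscle markers 3 were positive and 5 negative. Cldn5 was high in RI replicate 1 only, at 45.3 CPM, and its log2 fold change of 1.22 was -0.66 without that library.

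Markers of Schwann cells and nerve, 8 genes in all, summed to 841, 1079 and 923 CPM in RI replicates 1, 2 and 4, against 708, 671 and 733 CPM in ICI replicates 1, 2 and 3, so every RI library lay above every ICI library. Ngfr, which Schwann cells also express, was highest in RI replicate 4, at 0.887 CPM, while the summed markers were highest in RI replicate 2. In RI replicates 1 and 2 Ngfr had 0.355 and 0.383 CPM, inside the ICI range of 0.345 to 0.403 CPM. The 8 fat cell markers summed to 79.9, 59.9 and 67.6 CPM in RI replicates 1, 2 and 4, against 0.805, 0.679 and 26.5 CPM in ICI replicates 1, 2 and 3, with no overlap between the groups. Within this list Plin4, Cidec, Cfd, Retn and Pck1 were highest in an RI library. Adipoq and Plin1 were highest in ICI replicate 3, at 2.20 and 1.32 CPM, as was the untested Lep, with 43 counts. All 7 that were tested had a positive log2 fold change, with a median of 2.54, and 3 had an unadjusted edgeR p under 0.05. Of these 7, edgeR called 1 and limma-voom 2 higher, against 754 and 736 higher of all 16924 tested genes. The gene that rose in edgeR was Plin4, a lipid droplet protein, at 24.9 ± 7.65 CPM in RI and 1.77 ± 1.97 CPM in ICI (edgeR adjusted p = 0.0456), a call that was kept in 1 of the 6 fits that leave out a library. Of 8 skeletal muscle markers edgeR and limma-voom called 0, and DESeq2 called 2 higher, against 1746 higher of all 16924 tested genes. No unadjusted edgeR p was under 0.05 for these markers (0 of 8). They summed to 2483, 1089 and 19.6 CPM in RI replicates 1, 2 and 4, against 223, 182 and 2.78 CPM in ICI replicates 1, 2 and 3. Myoz1 and Myh4 averaged 13.8 ± 12.8 and 331 ± 347 CPM in RI, against 0.908 ± 0.851 and 5.08 ± 7.19 CPM in ICI (adjusted p = 0.159 and 0.183). Nestin is known from muscle progenitors, and Nes was lowest in RI replicate 1, the library with the most muscle marker RNA. RI replicates 2 and 4, with 1089 and 19.6 CPM of muscle markers, both had 45.6 CPM of Nes. ICI replicates 1, 2 and 3, with 223, 182 and 2.78 CPM, had 68.3, 57.7 and 66.4 CPM of Nes. Of 8 keratinocyte genes 5 had a row and only Perp was tested, at 0.983 ± 0.349 CPM in RI and 0.216 ± 0.168 CPM in ICI (adjusted p = 0.0783). The part of these cell types in the levels of the 10 genes was not tested.

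**Figure D5:**
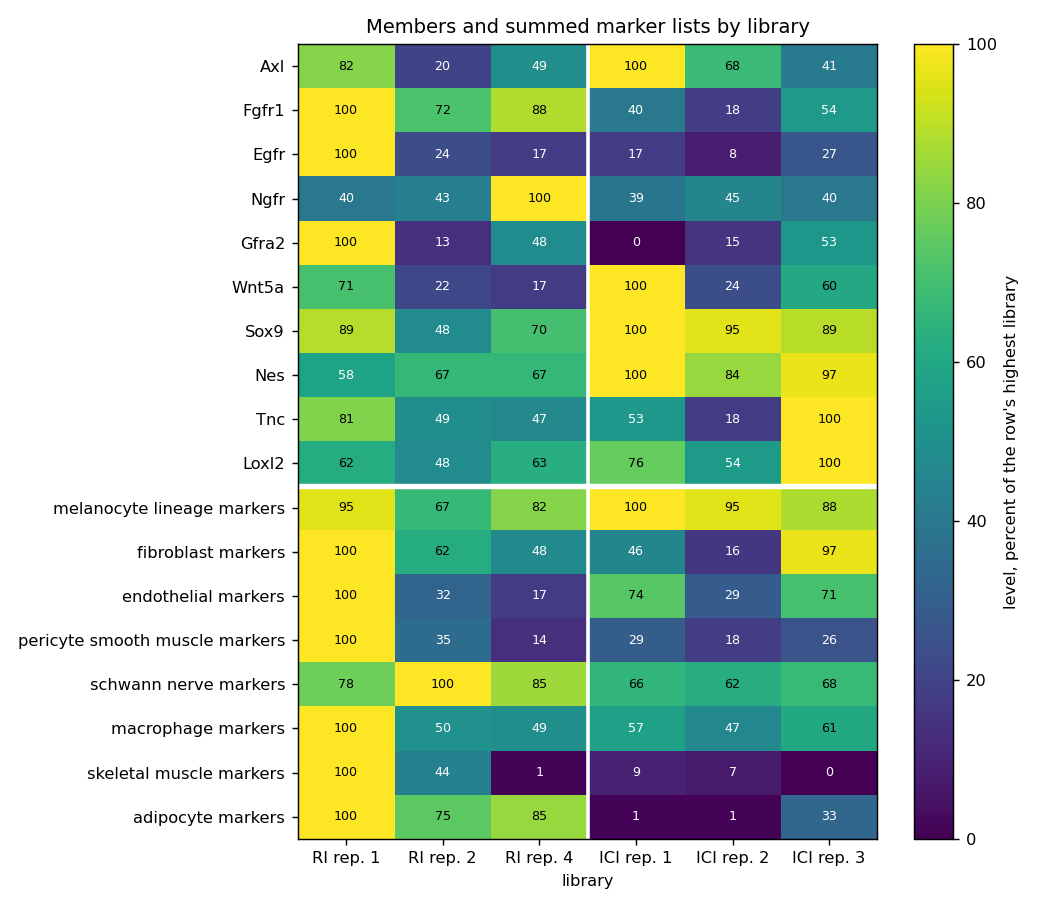
Level of each gene and summed level of each marker list (rows) in the 6 libraries (columns), as a percent of the row's highest library, with the number printed in each cell. RI replicate 1 is the highest library for Fgfr1, Egfr and Gfra2 and for 6 of the 8 marker lists plotted (fibroblast, endothelial, pericyte, macrophage, muscle and fat, but not melanocyte or Schwann cell), while Axl, Wnt5a, Sox9 and Nes are highest in ICI replicate 1. Des alone holds 536 of the 617 CPM of the pericyte list in RI replicate 1. Of that list, Des, Kcnj8 and Myh11 are highest in RI replicate 1, and Rgs5, Notch3, Abcc9, Cspg4 and Pdgfrb in ICI replicate 3.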

How the data were processed

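RNA of B16 tumours was sequenced as 6 bulk libraries, 3 labelled RI and 3 labelled ICI. The authors deposited raw whole-number counts per gene for 34665 Ensembl genes, 83 of them with no symbol. HISAT2, GRCm38 and mm10 are named, per the submitters' processing notes; the sources used here do not give the counting tool, its annotation or its strand setting. CPM values were computed here from the deposited counts.

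Counts were analysed with edgeR 4.0.16 in R 4.3.3: filterByExpr, TMM scaling, robust dispersions and the robust quasi-likelihood test of RI against ICI over all 16924 genes kept. Standard errors came from the coefficient and F statistic. The fit was tested on simulated data. Alternatives were scaling by upper quartiles or by median ratios, testing every row, a filter of 1 CPM in 3 libraries, DESeq2 1.42.0, limma-voom (limma 3.58.1), robust estimation off, the replicate number as a block, mitochondrial genes left out, leaving out each library, and per-library splines (5 degrees of freedom each) on transcript length and GC content as offsets. Positions and lengths came from GENCODE M21 (GRCm38). No 2 libraries agreed within sampling noise (chi-square per degree of freedom at least 36.3).

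The 10 genes and the 23 other lists (192 further genes) were chosen with earlier results of these data known. Named by rule were all members; every called partner or relative whose higher group mean reached 1 CPM; Gas6, Nrtn, Ret, Fgf2, Hbegf, Ror2, Lox, Sox10 and Mitf; and, of each other list, up to 4 called genes by fold change or, with none called, the 2 with the smallest p. A few genes that this rule names are not reported here.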

Additional observations from a re-analysis of the deposited data

How the results depend on the processing

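The number of the 10 genes called depended on the setting. Nes was called lower under median-of-ratios and upper-quartile scaling, both other filters, DESeq2, limma-voom, robust estimation off and without mitochondrial genes, and it was not called with the length and GC correction (0 lower) or when an absolute log2 fold change of 1 was also required (0 lower). Fgfr1 was called higher in addition with no filter (1 higher), with DESeq2 (1 higher) and at an adjusted p under 0.1 (1 higher). Leaving out 1 library gave 0 higher and 0 to 1 lower.

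Over all genes, 754 were higher and 799 lower. With upper-quartile scaling 1046 were higher and 497 lower, with no filter 1121 and 1507, DESeq2 1746 and 1703, and the length and GC correction 255 and 234. Without 1 library the counts ran from 0 to 1564 higher and from 0 to 1545 lower. Neither direction had a call (0 and 0) when ICI replicate 1 was left out, where 3701 genes had an unadjusted edgeR p under 0.05, or RI replicate 2, where 4107 did. Leaving out ICI replicate 3 gave 2 higher and 0 lower, ICI replicate 2 gave 234 and 291, RI replicate 4 gave 81 and 16, and RI replicate 1 gave 1564 and 1545. The length and GC correction without RI replicate 1, chosen after seeing the data, gave 1310 and 1255, with Nes called (adjusted p = 0.0354).

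With the replicate number as a block, 400 genes were higher and 245 lower, and of the 10 genes 2 were higher (Fgfr1 and Egfr) and 0 lower, with Nes at an adjusted p of 0.128, Fgfr1 at 0.0209 and Egfr at 0.0395. Under the block the log2 fold change of Tnc was 1.03 (adjusted p = 0.0553) and that of Gfra2 2.36 (0.310). Only numbers 1 and 2 occur in both groups. Deviations from the group mean of same-numbered libraries correlated at 0.35 for number 1 and 0.09 for number 2 across genes, and the labels do not say that a number pairs tumours. The numbers were used as names.

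Directions that changed were those of values near 0 or resting on 1 library. The log2 fold change of Tnc (0.05) was -0.0173 with no filter, -0.0811 with the added correction without RI replicate 1, and ran from -0.388 to 0.719 over fits without 1 library. That of Ngfr (0.52) was -0.0199 with the block, that of Hbegf (0.02) -0.0405 with no filter and -0.0349 to 0.0847 without 1 library, and that of Sox10 (0.21) -0.0477 with the length and GC correction. Cldn5 (1.22) was at -1.04 with the added correction and ran from -0.66 without RI replicate 1 to 1.70 without RI replicate 4. Genes under 1 CPM in 3 libraries (Ngfr, Wnt5a and Gfra2 of the 10) have no value under that filter. Without 1 library the adjusted p of Fzd7 ran from 0.0176 to 0.137, of Vim from 0.0246 to 0.152, of Tnxb from 0.0169 to 0.137 and of Itga9 from 0.0399 to 0.165. The causes of these changes were not tested.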
